A study of Mus musculus with 8 samples.

Results

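Ligand-regulated nuclear receptors were followed in naïve CD4 T cells and in effector Th1, Th2 and Th17 cells by RNA sequencing. The 10 genes described here, of 23284 gene symbols in the files, cover the receptors for glucocorticoids (*Nr3c1*), vitamin D (*Vdr*) and retinoic acid (*Rara*, *Rarg*), the retinoid X receptors (*Rxra*, *Rxrb*), the peroxisome proliferator-activated receptors (*Pparg*, *Ppard*) and the REV-ERB pair (*Nr1d1*, *Nr1d2*). The rule names the genes by symbol and sets no threshold on a measured value. The study itself looked for surface markers of effector T cells, and these receptors are intracellular.

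All T cells came from DO11.10 Tg mice, in which a transgenic TCR recognizes a peptide of ovalbumin (OVA), and the mice were adult. Naive cells were splenic CD4+ cells sorted as CD44low and CD62Lhi. Effector cells were made from such sorted cells by 6 days of culture with 0.3 μM OVA peptide and irradiated splenocytes from which T cells had been removed. IL-2 (30 U/ml), IL-12 (100 U/ml) and anti-IL-4 antibody (1 μg/ml) were added for Th1 cells. Th2 cells received IL-2 (30 U/ml), IL-4 (100 U/ml) and antibody to IFN-γ (10 μg/ml). For Th17 cells the additions were IL-1β, IL-6 and IL-23 at 10 ng/ml and antibodies to IL-4 and IFN-γ at 10 μg/ml. No group was activated without polarizing cytokines, so activation, culture time and cytokines cannot be told apart in any comparison with naïve cells, and all T cells carried the same transgenic receptor. There were 8 libraries, a replicate 1 and a replicate 2 for each of the 4 groups. The labels do not say whether replicates came from separate mice or cultures, so p-values measure the spread between these libraries only.

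Nuclear receptors are transcription factors that bind small lipophilic ligands and regulate genes directly from DNA. The vitamin D, retinoic acid and PPAR proteins bind DNA as partners of a retinoid X receptor, the glucocorticoid receptor is held by heat shock protein chaperones until its ligand arrives, and the REV-ERB proteins bind heme and repress transcription as part of the circadian clock. In T cells, glucocorticoids restrain inflammation and can kill resting lymphocytes, and vitamin D, retinoic acid and fatty acid ligands are known to shape helper T cell responses. None of these ligands was named among the culture additions.

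FPKM, the number of sequenced fragments per length of transcript and per size of the library, was deposited for each gene and library, and it can be compared between genes because it is scaled by length. The fragments implied by the deposited confidence intervals summed to 14463466 to 21058286 per library, the naïve libraries being the shallowest. Lineage markers followed the labels, with summed FPKM of *Tbx21* and *Ifng* of 665 to 847 in Th1 and of *Gata3*, *Il4* and *Il13* of 373 to 406 in Th2, and with *Il17a* at 347 and 335 FPKM in Th17 and at or below 0.711 elsewhere. *Cd3e* and *Cd4* were detected in all 8 libraries. The granulocyte precursor genes *Mpo* and *Elane* set the replicates apart, with *Mpo* at 4.89, 2.46 and 3.02 FPKM in Th1, Th2 and Th17 replicate 1 and at most 0.11 in the replicate 2 effector libraries. In bulk RNA, fewer cells expressing a gene and less RNA of it per cell cannot be told apart.

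All 10 receptors averaged 1 FPKM or more across the 8 libraries, the filter applied, and all were tested with limma on log2(FPKM + 1) beside 11198 genes in all. For genes with low FPKM this scale makes a change look smaller than it is. In every one of the 10 genes the 6 effector libraries lay on one side of both naïve libraries. *Vdr*, *Rara*, *Rxra*, *Pparg* and *Ppard* were above and *Rarg*, *Rxrb*, *Nr3c1*, *Nr1d1* and *Nr1d2* below. Among all genes tested, 61.6% had this separation, 30.5% with the effector libraries above and 31.1% with them below. *Vdr*, *Rara*, *Pparg* and *Ppard* rose and *Rarg*, *Rxrb*, *Nr3c1*, *Nr1d1* and *Nr1d2* fell in all 3 comparisons with naïve cells, while *Rxra* passed only against Th17. *Nr1d1* met the filter only through its naïve libraries, where it was highest, and it is kept in all counts of receptors. Of all genes, 48.6% passed in all 3 in one direction, 24.8% rising and 23.8% falling. By comparison, 9 receptors passed for Th1 (4 higher, 5 lower), where 67.3% of all genes did (33.8% higher, 33.5% lower). For Th2, 9 passed (4 higher, 5 lower), where 70.5% of all genes did (31.8% higher, 38.7% lower). For Th17, all 10 passed (5 higher, 5 lower), where 67.3% of all genes did (37.5% higher, 29.8% lower). These 3 comparisons share the same naïve libraries. The median difference of all genes from naïve cells was -0.01 for Th1, -0.11 for Th2 and 0.08 for Th17, and quantile normalization moved it to -0.13, -0.13 and -0.12, which shifted the share of higher calls among all Th17 calls from 55.7% to 44.2%.

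**Figure D1:**
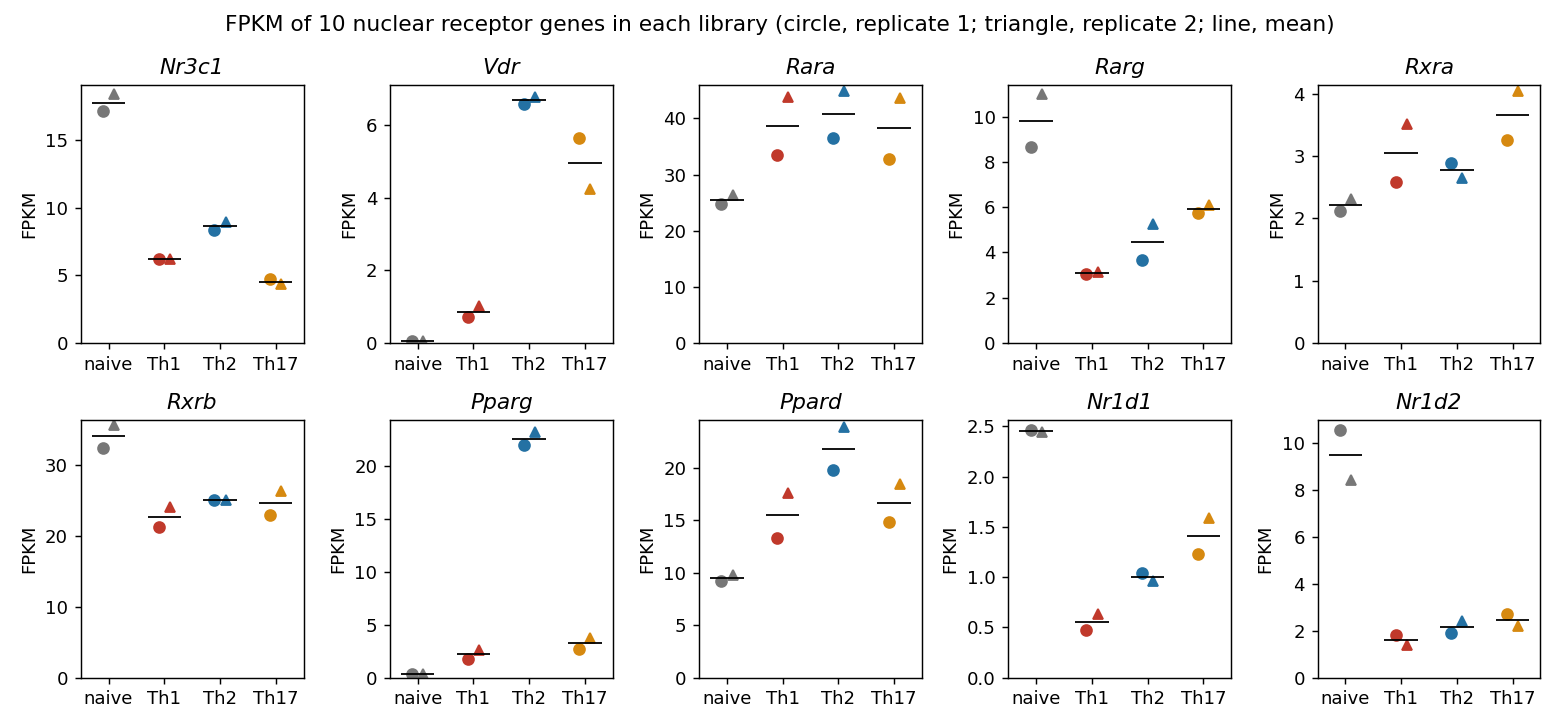
FPKM (linear axes from 0) of the 10 receptor genes in each library, by group, with circles for replicate 1, triangles for replicate 2 and a line for the mean of the 2 libraries. *Vdr* and *Pparg* were near 0 in naïve cells and highest on average in Th2, where *Pparg* reached 22.0 and 23.2, and *Nr3c1*, *Nr1d1* and *Nr1d2* were highest in naïve cells.

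The order of the receptors differed between naïve and effector cells. In naïve cells *Rxrb* had the highest mean, 34.1 FPKM, followed by *Rara* with 25.5 and *Nr3c1* with 17.8. *Rarg*, *Nr1d2* and *Ppard* came next at 9.83, 9.46 and 9.45, with overlapping libraries, and *Nr1d1* (2.46), *Rxra* (2.21), *Pparg* (0.336) and *Vdr* (0.0528) closed the order. *Rara* headed the order in each effector subset with means of 38.2 to 40.8, above *Rxrb* with 22.7 to 25.0. The third place was held by *Ppard* in Th1 and Th17 and by *Pparg* in Th2, where the libraries of *Pparg* and *Ppard* overlapped. *Nr1d1* was last in all 3 subsets, at 0.552 to 1.41 FPKM. Neighbours that overlapped in Th1 were *Rarg*, *Rxra*, *Pparg* and *Nr1d2*, and in Th17 they were *Vdr* with *Nr3c1* and *Rxra* with *Pparg*.

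*Nr3c1*, on chromosome 18 (39410545 to 39487245, minus strand, mm10), encodes the glucocorticoid receptor and fell in every subset. It had 17.1 and 18.4 FPKM in naïve cells, 6.20 and 6.24 in Th1 cells, 8.38 and 8.96 in Th2 cells, and 4.71 and 4.36 in Th17 cells. The 4 groups did not overlap with one another, and naïve cells were highest and Th17 cells lowest. The mean in naïve cells was 2.86 times that in Th1, 2.05 times that in Th2 and 3.91 times that in Th17. On the log2 scale the differences from naïve cells were -1.38 for Th1 (SE 0.09, adjusted p = 1.30e-05, limma with Benjamini-Hochberg adjustment), -0.96 for Th2 (SE 0.09, adjusted p = 6.56e-05) and -1.76 for Th17 (SE 0.09, adjusted p = 3.52e-06). Between subsets, Th17 was lower than Th2 by -0.80 (adjusted p = 0.000677), Th1 was lower than Th2 by -0.42 (adjusted p = 0.00818), and Th1 was higher than Th17 by 0.38 (adjusted p = 0.0194). The last of these no longer passed when either Th1 or either Th17 library was left out, with adjusted p of 0.0647 to 0.121 against a range of 0.005 to 0.121 over its 19 alternatives.

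The proteins that hold the glucocorticoid receptor were described by a list of 10 chaperone and cochaperone genes, all tested. Compared with naïve cells, 7 rose and 1 fell in Th1, 5 rose and 2 fell in Th2, and 7 rose and 1 fell in Th17, the list medians being 0.80, 0.50 and 0.76. Among all genes, 33.8% rose and 33.5% fell in Th1. In Th2 31.8% rose and 38.7% fell, and in Th17 37.5% rose and 29.8% fell. *Hsp90aa1*, the inducible HSP90 gene, had 43.1 and 41.1 FPKM in naïve cells, 146 and 148 in Th1 cells, 111 and 102 in Th2 cells, and 138 and 141 in Th17 cells (differences 1.78, 1.32 and 1.70). *St13*, which encodes the HSP70-interacting protein, rose from 32.9 ± 3.43 in naïve cells to 80.2 ± 4.49 in Th1 cells, 87.7 ± 1.37 in Th2 cells and 112 ± 0.330 in Th17 cells (SD, n = 2). *Hsp90ab1*, the constitutive HSP90 gene, rose by 1.07, 1.13 and 1.28. *Fkbp5*, a cochaperone that lowers the affinity of the receptor for hormone and is itself a target of it, rose by 2.14 in Th1 cells, 0.57 in Th2 cells and 0.99 in Th17 cells, and Th1 exceeded Th2 by 1.57 (adjusted p = 6.26e-05). Its libraries were at 12.7 and 13.3 in naïve cells, 58.5 and 62.6 in Th1 cells, 21.1 and 18.5 in Th2 cells, and 25.0 and 28.5 in Th17 cells. *Hspa8*, the constitutive HSP70 gene, differed most between Th1 (723 and 750) and Th2 (374 and 354), by 1.01 (adjusted p = 0.000428).

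Genes known to respond to glucocorticoids did not move in one direction. Of 13 listed genes 12 were tested, and 6 rose and 4 fell in Th1, 7 rose and 5 fell in Th2, and 4 rose and 3 fell in Th17, with medians of 0.19, 0.59 and 0.19, while 33.8%, 31.8% and 37.5% of all genes rose and 33.5%, 38.7% and 29.8% fell. *Tsc22d3*, which encodes the glucocorticoid-induced leucine zipper, had 313 and 276 FPKM in naïve cells and between 11.3 and 23.9 in all 6 effector libraries. Its differences from naïve cells were -4.27, -3.72 and -4.57 on the log2 scale, with adjusted p of 3.00e-07 to 5.76e-07. *Dusp1*, a MAP kinase phosphatase, fell from 51.4 and 41.3 in naïve cells to between 8.78 and 14.4 in the effector libraries. *Anxa1*, which encodes the anti-inflammatory protein annexin A1, was at 0.623 and 0.479 in naïve cells, 83.8 and 113 in Th1 cells, 2.39 and 1.56 in Th2 cells, and 6.30 and 10.6 in Th17 cells. It rose by 5.98 in Th1 cells, 0.93 in Th2 cells and 2.57 in Th17 cells, and the Th2 call was lost with quantile normalization, with no filter, and without naïve replicate 2 or Th2 replicate 1. *Cebpd*, a C/EBP transcription factor gene, was at or below 0.0219 FPKM in naïve cells and rose by 1.84, 0.80 and 1.63, the Th2 call being lost with quantile normalization. It met the filter only through its Th1 libraries, so its differences are descriptions, although it is kept in the counts. *Nfkbia*, the gene of the NF-κB inhibitor IκBα, was highest in Th17, with 30.5 and 30.9 in Th1 cells, 26.3 and 30.8 in Th2 cells, and 163 and 184 in Th17 cells, against 152 and 131 in naïve cells, and Th1 and Th2 overlapped.

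*Vdr*, on chromosome 15 (97854427 to 97908296, minus strand), encodes the vitamin D receptor. The 250 bases before its RefSeq transcription start are shown because *Vdr* had the largest ratio to naïve cells of the 10 genes, and because they hold the only match, among the windows searched, to TTC followed after any 4 bases by GAA, the palindrome bound by STAT6, the signal transducer of IL-4. The window lies at chr15:97908297-97908546 on the minus strand of GRCm38.p6 and is written 5′ to 3′ in the direction of the gene, with the match in capitals, its first letter 220 bases before the start.
Vdr: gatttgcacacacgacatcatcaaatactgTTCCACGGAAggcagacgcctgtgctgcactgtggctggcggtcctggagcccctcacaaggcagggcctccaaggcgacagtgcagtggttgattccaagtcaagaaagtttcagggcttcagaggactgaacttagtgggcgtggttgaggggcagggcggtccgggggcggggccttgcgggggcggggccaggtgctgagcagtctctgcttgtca
Of 32851 promoter windows of the same length in the RefSeq table, 5.85% held this motif. The match describes the letters only, and no window of *Nr3c1* was searched.

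*Vdr* rose from naïve cells in all 3 subsets, most in Th2 and Th17. Its FPKM was 0.0420 and 0.0635 in naïve cells, 0.705 and 1.01 in Th1 cells, 6.60 and 6.78 in Th2 cells, and 5.66 and 4.23 in Th17 cells. The 4 groups did not overlap. The naïve values rested on 4 and 6 implied fragments, and the ratios to them, 16.3 for Th1, 127 for Th2 and 93.8 for Th17, are accordingly rough. The log2 differences were 0.82 (SE 0.15, adjusted p = 0.00216), 2.87 (SE 0.15, adjusted p = 3.74e-06) and 2.49 (SE 0.15, adjusted p = 7.88e-06). Th1 was below Th2 by -2.05 (adjusted p = 7.35e-05) and below Th17 by -1.67 (adjusted p = 0.000310). Th17 and Th2 did not differ past the threshold (-0.38, 95% interval -0.73 to -0.03, adjusted p = 0.0734). The Th1 call against naïve cells was lost with quantile normalization, where the difference was 0.12 (adjusted p = 0.520, range 6.68e-05 to 0.520 over 19 alternatives), whereas a pseudocount of 0.1 raised the 3 differences to 2.64, 5.48 and 5.04 and the voom test to 3.80, 6.84 and 6.36.

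Few genes of vitamin D handling were expressed. Of 8 listed, 2 had a mean FPKM of at least 1. *Cyp24a1*, the catabolic enzyme that is the classical target of the receptor, and *Gc*, the vitamin D carrier, were listed at 0 in all 8 libraries, and *Cyp27b1*, which makes the active hormone, did not exceed 0.158. *Cyp27a1*, a sterol hydroxylase that can act on vitamin D, was at 3.36 and 4.04 FPKM in Th1 and at or below 0.418 in the other 6 libraries. On the log2 scale Th1 exceeded naïve cells by 2.12, Th2 by 2.15 and Th17 by 1.91. *Cyp27a1* met the filter only through its Th1 libraries, so these differences are descriptions and no p-value is given for them. *Pdia3*, a protein disulfide isomerase also described as a membrane binding protein for the hormone, rose by 0.86 in Th1 cells, 0.32 in Th2 cells and 0.39 in Th17 cells, and both smaller calls were lost with quantile normalization and without naïve replicate 1, that for Th2 also without either Th2 library and that for Th17 without Th17 replicate 2.

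The retinoic acid receptors went in opposite directions. *Rara* (chromosome 11, 98937696 to 98974942, plus strand) had 24.7 and 26.3 FPKM in naïve cells, 33.4 and 43.8 in Th1 cells, 36.6 and 44.9 in Th2 cells, and 32.9 and 43.5 in Th17 cells. Replicate 2 was higher in all 4 groups, and the 3 subsets overlapped fully. *Rara* rose by 0.57 in Th1 (SE 0.19, adjusted p = 0.0304), 0.65 in Th2 (SE 0.19, adjusted p = 0.0172) and 0.55 in Th17 (SE 0.19, adjusted p = 0.0341). With the replicate number as a block in limma, adjusted p was 0.00212, 0.00107 and 0.00237. No difference between subsets exceeded 0.10 in size, and the 95% intervals of the 3 differences reached from -0.54 to 0.46. All 3 calls against naïve cells were lost with no filter on low values and without naïve replicate 1. Each was also lost without replicate 2 of its own subset, those for Th1 and Th17 without naïve replicate 2, and that for Th1 in the voom test, so that adjusted p reached 0.208, 0.105 and 0.188 for Th1, Th2 and Th17 over their alternatives, from lowest values of 0.00111, 0.000343 and 0.00235.

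*Rarg* (chromosome 15, 102234940 to 102257483, minus strand) fell in all subsets. It had 8.64 and 11.0 FPKM in naïve cells, 3.04 and 3.12 in Th1 cells, 3.67 and 5.25 in Th2 cells, and 5.72 and 6.08 in Th17 cells. No 2 groups overlapped, and Th1 was lowest. The differences from naïve cells were -1.40 in Th1 (SE 0.16, adjusted p = 0.000271), -0.99 in Th2 (SE 0.16, adjusted p = 0.00134) and -0.64 in Th17 (SE 0.16, adjusted p = 0.0111). Th1 was lower than Th17 by -0.76 (adjusted p = 0.0163). The other subset differences, -0.40 for Th1 against Th2 (adjusted p = 0.0867) and 0.35 for Th17 against Th2 (adjusted p = 0.125), passed with the replicate number as a block (adjusted p = 0.0299 and 0.0470). The difference between Th1 and Th17 was lost with no filter, in the voom test and without any 1 of the 4 libraries compared, with adjusted p of up to 0.122 over its alternatives (lowest 0.00506), and that between Th17 and naïve cells without naïve replicate 2 or Th17 replicate 1 (range 0.00317 to 0.0669).

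**Figure D2:**
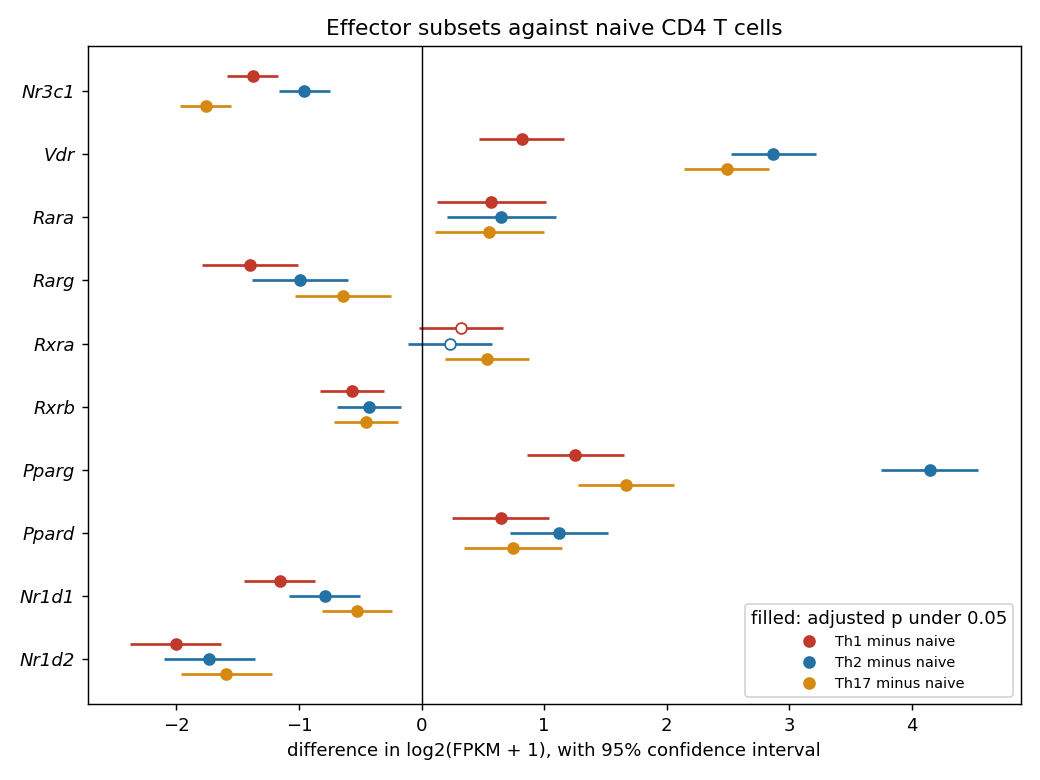
Differences of each receptor from naïve cells in log2(FPKM + 1), with 95% confidence intervals from limma, for Th1 (red), Th2 (blue) and Th17 (orange), and filled points for an adjusted p under 0.05. The largest difference was that of *Pparg* in Th2, 4.14, and the open points were those of *Rxra* in Th1 and Th2.

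The third retinoic acid receptor, *Rarb*, was below the filter, with 0.781 and 0.478 FPKM in naïve cells and at most 0.0806 in the effector libraries. Retinoid handling was described by 17 genes, of which 5 were tested, and 4 rose in all 3 subsets, as did 24.8% of all genes. *Stra6*, a cell surface receptor for retinol uptake, had 0.0851 and 0.103 FPKM in naïve cells, 1.15 and 1.16 in Th1 cells, 19.2 and 19.6 in Th2 cells, and 6.15 and 8.06 in Th17 cells. It rose by 0.98, 4.22 and 2.88, and Th1 lay below Th2 by -3.24 (adjusted p = 5.90e-06). Like *Vdr* and *Pparg*, its highest libraries were those of Th2. *Fabp5*, a fatty acid-binding protein that can carry retinoic acid to PPARδ, rose from 4.66 and 4.71 to 61.6 and 55.2 in Th1 cells, 66.6 and 56.4 in Th2 cells, and 179 and 176 in Th17 cells. *Rdh11*, a retinol dehydrogenase gene, rose by 0.82, 0.93 and 0.61. *Rdh10*, another such gene, was named after its values were seen, and it fell by 0.40 in Th1 and rose by 1.29 in Th2 and 0.36 in Th17. Its Th1 call was lost without naïve replicate 1 or either Th1 library, and its Th17 call without either naïve library or Th17 replicate 1. The Th1 call of *Stra6* was lost with quantile normalization. The retinaldehyde dehydrogenases *Aldh1a1*, *Aldh1a2* and *Aldh1a3*, which make retinoic acid, did not exceed 0.0645 FPKM, and the degrading enzymes *Cyp26a1*, *Cyp26b1* and *Cyp26c1* did not exceed 0.189.

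Of the retinoid X receptors, the shared partners, *Rxrb* (chromosome 17, 34031812 to 34038403, plus strand) fell in all subsets. It had 32.5 and 35.7 FPKM in naïve cells, 21.3 and 24.1 in Th1 cells, 25.1 and 25.0 in Th2 cells, and 23.0 and 26.3 in Th17 cells. The differences were -0.57 for Th1 (SE 0.11, adjusted p = 0.00312), -0.43 for Th2 (SE 0.11, adjusted p = 0.0104) and -0.45 for Th17 (SE 0.11, adjusted p = 0.00859). The subsets overlapped, and no subset difference exceeded 0.14 in size, with 95% intervals from -0.40 to 0.24. The Th2 call was lost without naïve replicate 2 (adjusted p = 0.0563, range 0.00268 to 0.0563) and the Th17 call without Th17 replicate 1 (adjusted p = 0.0550, range 0.000782 to 0.0550).

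*Rxra* (chromosome 2, 27677201 to 27763319, plus strand) was lower and moved less. Its FPKM was 2.12 and 2.31 in naïve cells, 2.58 and 3.51 in Th1 cells, 2.89 and 2.66 in Th2 cells, and 3.27 and 4.05 in Th17 cells. The effector libraries all lay above the naïve ones, and the subsets overlapped in Th1 with Th2 and in Th1 with Th17. It rose in Th17 by 0.53 (SE 0.14, adjusted p = 0.0142), whereas the differences of 0.32 in Th1 (adjusted p = 0.0841) and 0.23 in Th2 (adjusted p = 0.188) did not pass. These calls moved with scaling and with single libraries. With quantile normalization the Th17 difference was 0.05 (adjusted p = 0.772, range 0.00851 to 0.772) and those for Th1 and Th2 were -0.01 and -0.03, whereas with median scaling all 3 were above 0 and past the threshold, Th1 and Th2 at 0.36 and 0.36. The Th17 call was also lost without naïve replicate 1 or Th17 replicate 2, and Th1 passed without Th1 replicate 1 (0.49, adjusted p = 0.0330). Between subsets, *Rxra* differed by 0.30 for Th17 against Th2 (95% interval -0.04 to 0.64, adjusted p = 0.136) and by less in the other comparisons. The remaining partner, *Rxrg*, did not exceed 0.0849 FPKM.

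*Pparg* (chromosome 6, 115361221 to 115490401, plus strand) encodes PPARγ, the fatty acid-sensing receptor known for adipocyte differentiation and for effector functions of Th2 cells. It had 0.307 and 0.364 FPKM in naïve cells, 1.79 and 2.64 in Th1 cells, 22.0 and 23.2 in Th2 cells, and 2.75 and 3.78 in Th17 cells. The groups did not overlap, and Th2 stood apart, with a mean 67.4 times that of naïve cells, against 6.60 times in Th1 and 9.74 times in Th17. The log2 differences from naïve cells were 1.25 in Th1 (SE 0.17, adjusted p = 0.000489), 4.14 in Th2 (SE 0.17, adjusted p = 1.26e-06) and 1.67 in Th17 (SE 0.17, adjusted p = 0.000111). Th2 exceeded the other subsets, with -2.89 for Th1 against Th2 (adjusted p = 2.97e-05) and -2.48 for Th17 against Th2 (adjusted p = 8.88e-05). Th1 and Th17 differed by -0.41 (adjusted p = 0.123), which passed with the replicate block (adjusted p = 0.0403). The naïve values rested on 10 and 12 implied fragments, and the differences from naïve cells were 2.39, 5.71 and 2.94 with a pseudocount of 0.1, whereas quantile normalization lowered them to 0.49, 3.59 and 0.77, all still past the threshold.

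Macrophages also express *Pparg*, and the summed level of their markers was highest in Th2, although the single markers differed. The monocyte and macrophage list (7 of 8 symbols in the files, 6 reaching 1 FPKM and none at 0 in all libraries) summed to 31.0 to 34.4 FPKM in Th2, 19.4 to 20.6 in naïve cells, 12.4 to 14.3 in Th1 and 23.1 to 24.6 in Th17. *Emr1*, which encodes F4/80, was at 4.63 and 5.88 in Th2 and at or below 0.938 elsewhere, and *Lyz2*, the lysozyme gene, was at 19.9 and 11.7 in Th2 and at or below 10.0 elsewhere. *Cd68*, of the same list, was at 8.07 and 11.4 in Th2 and at or below 8.55 elsewhere. *Csf1r*, the macrophage growth factor receptor, was at 0.989 and 0.841 in Th2 and higher, at 3.84 and 3.20, in naïve cells. *Mrc1*, the mannose receptor gene, was also highest in naïve cells (1.220 and 1.502, against 0.301 and 0.526 in Th2), and *Cd14*, a lipopolysaccharide coreceptor gene, was highest in Th17 (4.41 and 3.75, against 0.557 and 0.539 in Th2). The part of these cells in the Th2 value of *Pparg* was not tested. Mast cell and basophil genes were near 0, with *Fcer1a* at 0 in all libraries and summed levels of at most 0.333.

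*Ppard* (chromosome 17, 28232754 to 28301469, plus strand) encodes the widely expressed PPARδ and rose in all subsets. It had 9.16 and 9.74 FPKM in naïve cells, 13.3 and 17.6 in Th1 cells, 19.8 and 23.8 in Th2 cells, and 14.8 and 18.5 in Th17 cells. Replicate 2 was higher in every group, and Th2 lay above both other subsets. The differences from naïve cells were 0.64 in Th1 (SE 0.17, adjusted p = 0.0120), 1.12 in Th2 (SE 0.17, adjusted p = 0.000808) and 0.75 in Th17 (SE 0.17, adjusted p = 0.00615). Th1 and Th17 against Th2 gave -0.48 (adjusted p = 0.0561) and -0.37 (adjusted p = 0.114), and both passed with the replicate block (adjusted p = 0.00634 and 0.0160). The Th1 call against naïve cells was lost with no filter and without naïve replicate 1 or Th1 replicate 2 (adjusted p up to 0.0732, lowest 0.000553). *Ppara*, the third PPAR gene, did not exceed 0.00467 FPKM.

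Of 17 known PPAR target genes 10 were tested, 4 rising and 2 falling in all 3 subsets, where 24.8% of all genes rose and 23.8% fell. In Th1 4 rose and 2 fell, in Th2 5 rose and 3 fell, and in Th17 5 rose and 2 fell, with medians of 0.07, 0.35 and 0.38, beside 33.8%, 31.8% and 37.5% of all genes rising and 33.5%, 38.7% and 29.8% falling. *Acadl*, a mitochondrial enzyme of fatty acid oxidation, had 21.5 and 21.3 FPKM in naïve cells, 212 and 215 in Th1 cells, 132 and 167 in Th2 cells, and 231 and 217 in Th17 cells. *Plin2*, a lipid droplet protein gene, rose from 5.50 and 6.10 to 31.4 and 32.6 in Th1 cells, 28.4 and 20.9 in Th2 cells, and 60.5 and 66.6 in Th17 cells. *Angptl4*, a secreted lipase inhibitor gene, rose by 2.02, 1.56 and 1.93. In none of these 3 genes was Th2 the highest subset, unlike *Pparg*. *Acaa2*, a thiolase gene of fatty acid oxidation, fell by 1.45, 1.66 and 1.02. *Slc25a20*, the mitochondrial acylcarnitine carrier, was lower in Th2 (7.86 and 7.21) than in naïve cells (14.4 and 13.3), Th1 (13.0 and 14.8) and Th17 (14.8 and 15.2).

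The REV-ERB genes fell together in every subset. Their windows of 250 bases before the RefSeq start are shown since these genes are classical targets of the clock, whose activators bind CACGTG (the E-box), whose PAR-bZIP factors bind TTATGTAA or TTACGTAA (the D-box) and whose nuclear receptors bind AGGTCA. Both genes lie on the minus strand, *Nr1d1* with the window chr11:98775378-98775627 and *Nr1d2* with chr14:18239107-18239356 (GRCm38.p6), and capitals mark the only match, AGGTCA at 77 bases before the start of *Nr1d2*.
Nr1d1: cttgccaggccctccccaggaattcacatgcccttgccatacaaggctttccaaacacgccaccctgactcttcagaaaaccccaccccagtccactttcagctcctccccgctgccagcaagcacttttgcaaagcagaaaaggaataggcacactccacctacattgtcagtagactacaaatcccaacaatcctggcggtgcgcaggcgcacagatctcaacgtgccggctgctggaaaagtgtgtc
Nr1d2: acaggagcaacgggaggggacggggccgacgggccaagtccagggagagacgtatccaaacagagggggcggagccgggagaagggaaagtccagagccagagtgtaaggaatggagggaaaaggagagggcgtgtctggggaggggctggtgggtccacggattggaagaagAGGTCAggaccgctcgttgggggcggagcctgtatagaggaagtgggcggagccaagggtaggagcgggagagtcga
Both strands were searched. CACGTG occurred in 6.02% of the 32851 windows, AGGTCA in 14.0% and a D-box in 0.932%, and the lack of a match in a window says only that these letters are not there. Among the other receptor genes with a window used here, which were searched for the same 4 motifs, *Rara*, *Rarg*, *Rxra* and *Pparg* each had a match in at least 1 of their windows.

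*Nr1d2* (chromosome 14, 18204056 to 18239106), which encodes REV-ERBβ, was the more abundant of the pair. It had 10.5 and 8.40 FPKM in naïve cells, 1.80 and 1.40 in Th1 cells, 1.89 and 2.40 in Th2 cells, and 2.73 and 2.20 in Th17 cells. The naïve mean was 5.90 times that of Th1, 4.41 times that of Th2 and 3.84 times that of Th17, and it was the largest fall of the 10 genes in Th1 and Th2. The log2 differences were -2.00 (SE 0.16, adjusted p = 3.70e-05), -1.73 (SE 0.16, adjusted p = 6.31e-05) and -1.59 (SE 0.16, adjusted p = 0.000105), and all 3 passed under each of the 19 alternatives. No difference between subsets passed. The largest, -0.41 for Th1 against Th17, had a 95% interval of -0.79 to -0.04 (adjusted p = 0.105).

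*Nr1d1* (chromosome 11, 98767935 to 98775242), which encodes REV-ERBα, fell from 2.47 and 2.44 FPKM in naïve cells to 0.470 and 0.635 in Th1 cells, 1.04 and 0.959 in Th2 cells, and 1.23 and 1.59 in Th17 cells. The 4 groups did not overlap. The differences from naïve cells were -1.16 in Th1 (SE 0.12, adjusted p = 0.000152), -0.79 in Th2 (SE 0.12, adjusted p = 0.000910) and -0.52 in Th17 (SE 0.12, adjusted p = 0.00699), and these passed under each of the 19 alternatives. Th1 was lower than Th17 by -0.63 (adjusted p = 0.00989) and lower than Th2 by -0.37 (adjusted p = 0.0455), while Th17 against Th2 gave 0.27 (95% interval -0.02 to 0.55, adjusted p = 0.118). The Th1 and Th2 difference was lost with no filter, with quantile normalization, and without naïve replicate 1 or any library of Th1 or Th2, and the Th1 and Th17 difference with quantile normalization and without Th1 replicate 1 (adjusted p up to 0.168 and 0.0843, lowest 0.0157 and 0.00654). The exons of *Nr1d1* overlap those of *Thra*, the thyroid hormone receptor α gene on the opposite strand, over 263 bases, 8.55% of its exon bases. *Thra* was at 6.57 to 18.5 FPKM and highest in Th2, and since the labels and the methods name kits that differ in keeping strand, shared reads could not be separated. The other 9 genes had no exon overlap with another annotated gene.

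The clock itself was covered by 19 genes, 14 of them tested. In Th1 4 rose and 6 fell, in Th2 5 rose and 7 fell, and in Th17 3 rose and 4 fell, with medians of -0.29, -0.26 and -0.10. The shares of all genes that rose were 33.8%, 31.8% and 37.5%, and the shares that fell 33.5%, 38.7% and 29.8%. *Bhlhe40*, the transcriptional repressor DEC1, was at 0.705 and 0.935 FPKM in naïve cells, 159 and 175 in Th1 cells, 67.5 and 121 in Th2 cells, and 174 and 213 in Th17 cells, rising by 6.53, 5.65 and 6.74. *Nfil3*, a repressor that acts on D-boxes, rose from 0.928 and 0.736 to 120 and 128 in Th1 cells, 252 and 248 in Th2 cells, and 85.1 and 96.8 in Th17 cells. In both genes every effector library lay above both naïve ones. *Gm129*, now named *Ciart*, a clock repressor gene, was at 0.990 and 0.810 in naïve cells, 1.88 and 2.07 in Th1 cells, 5.36 and 9.45 in Th2 cells, and 1.80 and 2.68 in Th17 cells. Its rises of 0.65 in Th1 and 0.76 in Th17 were lost in 9 and 6 of 19 alternatives, both without either naïve library, that for Th1 also without any Th1 or Th17 library and that for Th17 without Th17 replicate 2. The Th17 difference was -0.08 with quantile normalization, while the Th2 rise of 2.10 was kept in all. *Arntl*, the BMAL1 gene that REV-ERB proteins repress, was named after its values were seen. It fell in Th1 (4.41 and 5.07) and Th2 (3.56 and 3.80) from 10.2 and 10.3 in naïve cells, and was at 8.23 and 9.32 in Th17 (difference -0.21, adjusted p = 0.109). The Th17 difference passed with median scaling, alone or with the replicate block, and with quantile normalization, and had the opposite sign in the voom test, with adjusted p from 0.0218 to 0.422 over its alternatives.

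Related receptors can be compared within a library by their share of the summed FPKM. *Rarg* and *Rara* together were made up to 72.3% ± 2.52 by *Rara* in naïve cells, 92.5% ± 1.20 in Th1 cells, 90.2% ± 0.949 in Th2 cells and 86.5% ± 1.82 in Th17 cells (SD, n = 2). *Pparg* made up 3.42% ± 0.260 of the summed FPKM of *Pparg* and *Ppard* in naïve cells, 12.4% ± 0.867 in Th1 cells, 51.0% ± 2.30 in Th2 cells and 16.3% ± 0.942 in Th17 cells. Th2 was thus the only group in which both PPAR genes were about equal, *Pparg* being the higher in replicate 1 and *Ppard* in replicate 2. The share of *Rxra* in *Rxra* and *Rxrb* was 6.10% ± 0.0428 in naïve cells, 11.8% ± 1.34 in Th1 cells, 9.97% ± 0.545 in Th2 cells and 12.9% ± 0.612 in Th17 cells. *Rxrb* therefore kept the larger share of the summed FPKM of this pair, at least 86.7% in every library. *Nr1d1* made up 19.0% and 22.5% of the REV-ERB pair in naïve cells, 20.7% and 31.2% in Th1 cells, 35.5% and 28.5% in Th2 cells, and 31.1% and 41.9% in Th17 cells, so that Th1 overlapped all other groups. These shares are descriptions, and no test of them was run.

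**Figure D3:**
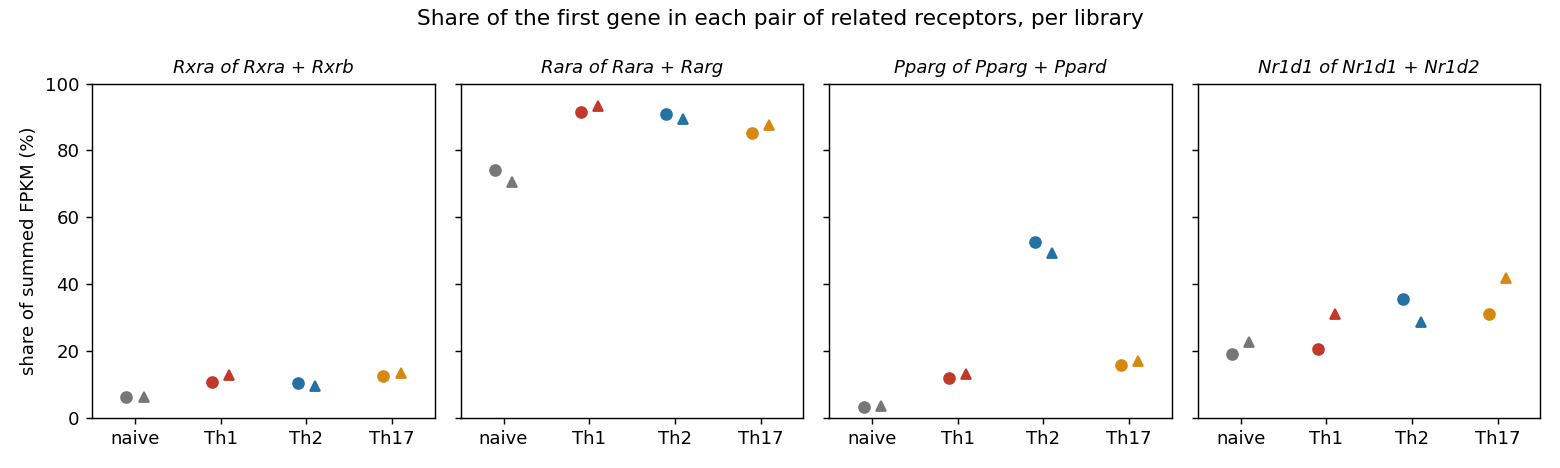
Share (%) of the first gene in the summed FPKM of each pair of related receptors, per library, with circles for replicate 1 and triangles for replicate 2. *Pparg* was at 52.6% and 49.4% of its pair in Th2 and at or below 17.0% elsewhere.

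Between effector subsets, differences were fewer. For Th1 against Th2, 4 receptors passed and all were lower in Th1 (*Vdr*, *Pparg*, *Nr3c1*, *Nr1d1*), where 44.3% of all genes passed, 27.4% higher and 16.9% lower in Th1. For Th17 against Th2, *Pparg* and *Nr3c1* passed, both lower in Th17, where 43.6% of all genes passed, 31.7% higher and 12.0% lower. For Th1 against Th17, *Nr3c1* was higher and *Vdr*, *Rarg* and *Nr1d1* were lower in Th1, where 25.1% of all genes passed, 9.17% higher and 16.0% lower. These backgrounds depend on scaling. The share of higher calls among all calls was 61.8%, 72.6% and 36.5% in the 3 comparisons as fitted. Median scaling gave 52.4%, 52.5% and 48.8%, and quantile normalization 50.9%, 50.7% and 49.7%. No receptor was higher in Th1 or Th17 than in Th2 past the threshold as fitted. *Vdr*, *Rarg*, *Pparg*, *Nr3c1* and *Nr1d1*, 5 of the 10, passed in at least 1 of the 3, as did 59.9% of all genes, and *Rara*, *Rxra*, *Rxrb*, *Ppard* and *Nr1d2* passed in none.

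**Figure D4:**
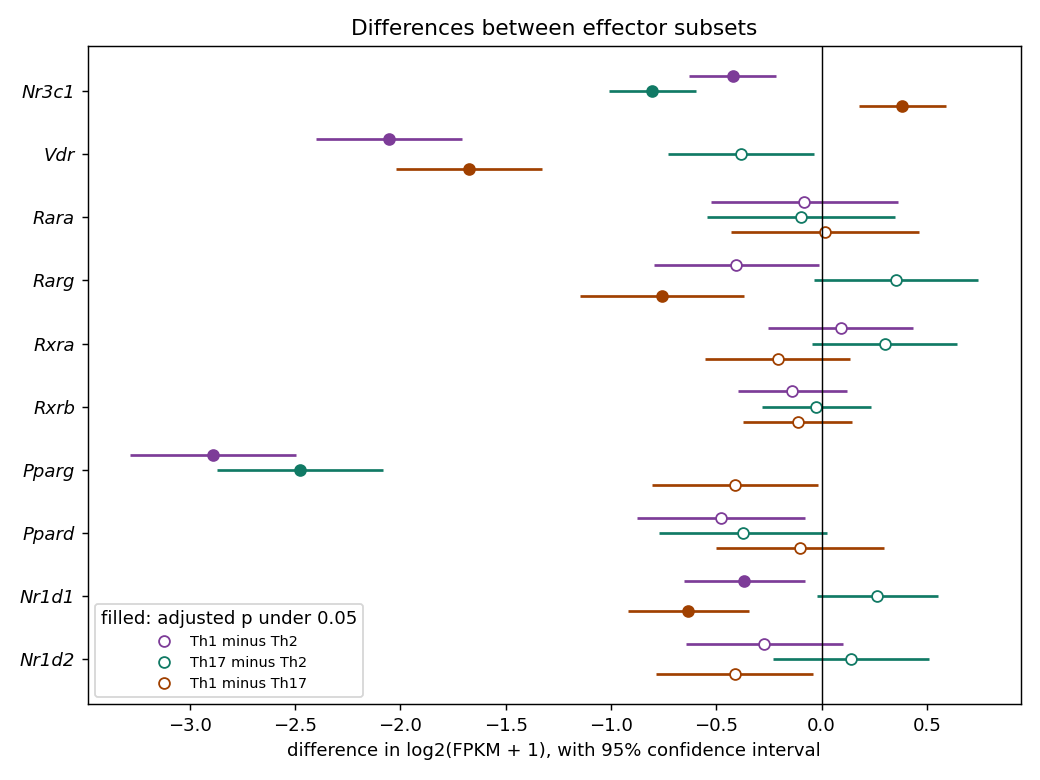
Differences of each receptor between effector subsets in log2(FPKM + 1), with 95% confidence intervals from limma, for Th1 minus Th2 (purple), Th17 minus Th2 (green) and Th1 minus Th17 (brown), and filled points for an adjusted p under 0.05. *Pparg* and *Vdr* differed most, by -2.89 and -2.05 for Th1 against Th2.

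The other 39 nuclear receptor genes listed were mostly silent. Under the filter were 29, of which 24 reached 1 FPKM in no library, among them *Nr3c2*, the mineralocorticoid receptor, with at most 0.0449. Of the 10 tested, 1 rose and 3 fell in all 3 subsets, against 24.8% and 23.8% of all genes. *Nr2f6*, an orphan receptor gene, rose by 0.77, 0.67 and 0.94, and all 3 calls were lost with quantile normalization, that for Th2 also without naïve replicate 1 or Th2 replicate 1. *Nr4a1*, an immediate early gene of TCR signaling, fell from 13.1 and 17.0 FPKM to 3.08 and 3.31 in Th1 cells, 2.98 and 3.35 in Th2 cells, and 9.51 and 11.8 in Th17 cells, the Th17 call being lost in 8 of 19 alternatives, among them the omission of naïve replicate 2, Th17 replicate 1 or any Th1 or Th2 library. *Esrra*, an orphan receptor of mitochondrial metabolism, fell by 0.65, 0.92 and 0.67, and *Nr2c2* by 0.72, 0.72 and 0.81. *Rora*, a receptor that binds the same DNA elements as REV-ERB proteins, was at 9.56 and 13.6 in Th17 against 2.25 and 3.23 in Th2.

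Coactivators and corepressors are the proteins through which nuclear receptors act. Of 12 coactivator genes tested, 7 fell in each subset, while 0, 1 and 2 rose in Th1, Th2 and Th17, with medians of -0.63, -0.84 and -0.52. Of all genes, 33.5% fell in Th1, 38.7% in Th2 and 29.8% in Th17, and 33.8%, 31.8% and 37.5% rose. The genes that rose were *Ncoa3* in Th2 and *Carm1* and *Prmt1*, which encode arginine methyltransferases, in Th17 (the last 2 named after their values were seen). The call of *Ncoa3* was lost with no filter and without naïve replicate 1 or either Th2 library, and that of *Carm1* in the voom test and without naïve replicate 2 or Th17 replicate 2. *Crebbp*, an acetyltransferase, had 11.1 and 19.5 FPKM in naïve cells and 3.27 to 5.96 in the effector libraries. *Ppargc1b*, a PGC-1 coactivator, fell from 2.83 and 4.68 to between 0.638 and 0.938. It met the filter only through its naïve libraries, so its fall is a description, although it is kept in the counts. *Ncoa2* fell from 19.1 and 23.6 to between 6.35 and 10.8, and *Kat2b* from 28.4 and 27.2 to between 10.5 and 14.8, the Th2 call of *Kat2b* being lost in the voom test. *Ncoa3* was highest in Th2, at 47.0 and 53.3, and Th1 lay below Th2 by -1.53 (adjusted p = 0.000870). Of 8 corepressor genes tested, 3 fell in Th1 (5 with the replicate block), 4 in Th2 and 3 in Th17, where *Hdac3*, a histone deacetylase gene named after its values were seen, rose by 0.46, a call lost without naïve replicate 1 or Th17 replicate 2. With 3 or 4 of 8 falling, the falls of the corepressors were near the shares of all genes. The rises were fewer, 0 in Th1, 0 in Th2 and 1 in Th17. The list medians were -0.45, -0.37 and -0.36, against -0.01, -0.11 and 0.08 for all genes. *Gps2*, a subunit of the NCoR and SMRT complexes, fell from 79.2 and 76.1 to between 16.5 and 29.1. *Sin3a* and *Tbl1xr1* also fell in all 3 subsets. The Th2 call of *Sin3a* was lost in 4 of 19 alternatives, among them without naïve replicate 2 or either Th2 library, and that of *Tbl1xr1* in 12, among them without naïve replicate 1, Th2 replicate 1 or any Th1 or Th17 library. The Th17 call of *Tbl1xr1* was lost without Th17 replicate 2. The number of corepressor genes called was 5 for Th1 without naïve replicate 1, 2 for Th2 without naïve replicate 2 and 1 without Th2 replicate 1, and 2 for Th17 without Th17 replicate 2.

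**Figure D5:**
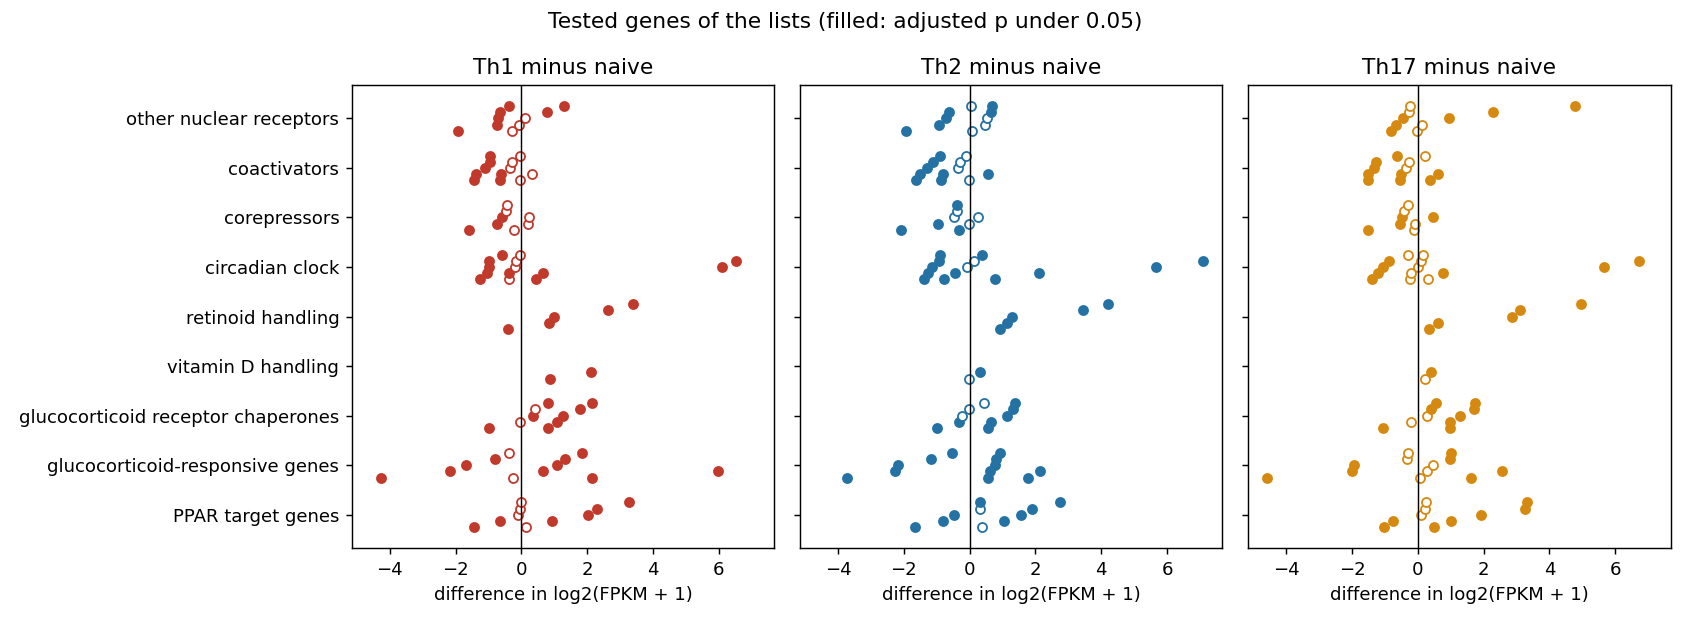
Differences from naïve cells in log2(FPKM + 1) of the tested genes of 9 lists, 1 panel per effector subset, with 1 point per gene and filled points for an adjusted p under 0.05. Coactivators lay mostly below 0 and retinoid handling genes mostly above, and the points farthest to the right were those of *Bhlhe40* and *Nfil3* and farthest to the left those of *Tsc22d3*.

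The genes whose pattern was most like each receptor were found by Pearson's r of log2(FPKM + 1) over the 8 libraries. These libraries form 4 groups of 2, so r mainly describes the 4 group means. For *Vdr* they were *Mmp8*, a collagenase gene (r = 0.9998, 0 in both naïve libraries and 3.52 and 3.75 FPKM in Th2), and *B230120H23Rik* (r = 0.995). *Pparg* was most like *Mmp13* (r = 0.997, 4.83 and 4.90 in Th2 and at most 0.903 elsewhere) and *Ifi30*, a lysosomal thiol reductase gene (r = 0.995). *Nr3c1* was most like *Ccdc109a* (r = 0.994) and *Acss1* (r = 0.993), the latter with 28.4 and 31.3 in naïve cells and 2.52 to 7.78 in the effector libraries. *Nr1d2* was most like *Rufy2* and *Pwwp2a* (both r = 0.996), *Nr1d1* like *Ankrd13c* (r = 0.990) and *Slc41a3* (r = 0.989), and *Rarg* like *Adamts6* (r = 0.993) and *Dcaf8* (r = 0.981). *Rara* was most like the ribosomal protein gene *Rpl28* (r = 0.975) and *Csnk2a2* (r = 0.973), *Ppard* like *Rnf126* (r = 0.995) and *Timm44* (r = 0.991), *Rxra* like *Tbc1d5* (r = 0.988) and *Noc4l* (r = 0.977), and *Rxrb* like *Aldh4a1* (r = 0.992) and *Slc12a9* (r = 0.991). Among the receptors themselves, *Rarg* and *Nr1d1* were the most alike, with r of 0.953.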

How the data were processed

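RNA sequencing was deposited for 8 libraries. According to the submitters' processing notes and the methods, the authors aligned 50-base reads to mm10 with Bowtie 0.12.8 and TopHat 1.3.2 and computed FPKM per gene with Cufflinks 2.0.2. They deposited FPKM with its confidence interval. The gene annotation is not given in the sources used here.

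Rows were summed by symbol. FPKM was tested as log2(FPKM + 1) with limma 3.58.1 (R 4.3.3, lmFit, eBayes with trend, 4 group means in 1 fit, two-sided, Benjamini-Hochberg adjustment) for 11198 genes with a mean of at least 1, at adjusted p under 0.05. Python (3.11.15) with numpy (2.4.6) and pandas (2.3.3) was used for tables, and the fit was tested on simulated data. The fragments behind a value were computed from the width of its confidence interval, taken as counting error only. The labels do not say whether libraries with the same replicate number belong together. Replicate differences of the 6 pairs of groups correlated at 0.138 to 0.294. The main fit had no replicate block, which was used as an alternative only. Exon overlaps came from GENCODE and promoters from RefSeq (GRCm38.p6).

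The receptors, gene lists and tests were chosen with earlier results of these data known. Named were all 10 receptors, up to 4 list genes with the largest mean difference among those past in all 3 comparisons with naïve cells and up to 2 with the largest subset difference, cell type markers, the 2 genes most correlated with each receptor, and genes with overlapping exons. Some genes that the rule names are not reported here. Genes at or near 0 in a list are named as exceptions after their values were seen. As alternatives, the pseudocount was set to 0.1, the filter dropped or lowered to 0.5, values were median scaled or quantile normalized, and fits were made without trend, with the replicate block, on the 2 groups compared alone, on the highest row per symbol, with voom on implied fragments, and with each library left out. Median scaling with the replicate block was added after the data were seen.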

Additional observations from a re-analysis of the deposited data

Results flagged for a closer look

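The effect of culture against the same naïve cells differed between subsets in 10 cases, by the test of the subset difference in limma on log2(FPKM + 1). *Vdr* rose less in Th1 than in Th2, by -2.05 (SE 0.15, adjusted p = 7.35e-05), and less than in Th17, by -1.67 (SE 0.15, adjusted p = 0.000310). *Pparg* rose less in Th1 than in Th2, by -2.89 (SE 0.17, adjusted p = 2.97e-05), and less in Th17 than in Th2, by -2.48 (SE 0.17, adjusted p = 8.88e-05). *Nr3c1* fell more in Th17 than in Th2, by -0.80 (SE 0.09, adjusted p = 0.000677), more in Th1 than in Th2, by -0.42 (SE 0.09, adjusted p = 0.00818), and less in Th1 than in Th17, by 0.38 (SE 0.09, adjusted p = 0.0194). *Rarg* fell more in Th1 than in Th17, by -0.76 (SE 0.16, adjusted p = 0.0163). *Nr1d1* fell more in Th1 than in Th17, by -0.63 (SE 0.12, adjusted p = 0.00989), and more in Th1 than in Th2, by -0.37 (SE 0.12, adjusted p = 0.0455). Both *Nr1d1* cases, the *Rarg* case and that of *Nr3c1* in Th1 against Th17 lost the call under some alternatives, as given above. With 2 libraries in each group, no library could be tested as standing apart from its group.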

How the results depend on the processing

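Of the 60 receptor differences under 18 alternatives, 1000 values had the same sign and the same call, 42 lost the call, 20 gained one and 18 changed sign, none of these a called difference. Under the alternative added after the data were seen, median scaling with the replicate block, 51 had the same sign and call, 8 gained a call and 1 changed sign. The number of receptors past the threshold moved for Th17 against Th2 from 2 to 4 with median scaling, 4 with quantile normalization, 4 with the replicate block and 5 with both median scaling and the block, which also gave 7 in place of 4 for Th1 against Th2. For Th1 against Th17 it was 1 to 4 with single libraries left out, 1 without Th1 replicate 1 and 2 without Th1 replicate 2 or either Th17 library. The replicate block changed no receptor call other than the 5 given for *Rarg*, *Pparg* and *Ppard*. *Vdr* in Th17 against Th2 gained a call with median scaling, with quantile normalization and without Th17 replicate 1, and *Ppard* in Th1 or Th17 against Th2 with either scaling. Among differences that did not pass, quantile normalization gave *Rxra* -0.00794 for Th1 and -0.0339 for Th2 against naïve cells and *Nr1d2* -0.117 for Th17 against Th2, where median scaling gave -0.0289, also with the block. The voom test gave -0.0465 for *Rarg* and 0.0776 for *Rxrb* in Th17 against Th2, and -0.302 for *Rara* and 0.163 for *Pparg* in Th1 against Th17. With single libraries left out, *Rara* ranged from -0.272 to 0.11 for Th1 against Th2, -0.295 to 0.101 for Th17 against Th2 and -0.182 to 0.214 for Th1 against Th17. *Rxra* ranged from -0.0758 to 0.258 for Th1 against Th2, *Rxrb* from -0.12 to 0.0701 for Th17 against Th2 and *Ppard* from -0.293 to 0.0854 for Th1 against Th17. The cause of these changes was not tested. Depth limits *Vdr* and *Pparg* in naïve cells, with 4 to 12 implied fragments.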
